A study of Mus musculus with 503 samples.

Results

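The 10 genes of extracellular matrix turnover followed here were the matrix metalloproteinases Mmp2, Mmp3, Mmp11, Mmp14, Mmp19 and Mmp23, and the 4 tissue inhibitors of metalloproteinases, Timp1 to Timp4. They were taken by their symbols, 10 of the 56701 gene rows of the count table, and all 10 had counts. The cells came from the spinal cord of mice of 1 genotype, GLAST-CreERT2;R26R-tdTomato;Pdgfrb-eGFP, with no age given in the labels. Every cell is labelled female. The reporting summary of the study names both sexes for its sequencing, and its methods give only female mice for crush lesions. Pdgfrb regulatory sequence drives EGFP in perivascular cells, and tamoxifen-induced Cre under the GLAST (Slc1a3) promoter marks a part of them for good with tdTomato. Cells were sorted one by one as tdTomato+EGFP+ or tdTomato-EGFP+, from uninjured animals or from the lesioned segment after a crush, labelled 3d_SCI for 3 days after spinal cord injury. The description of the whole series gives another day for the injury, and the label of each cell was followed. All sorted cells were EGFP+, so the sorts are called tdTomato+ and tdTomato- in what follows. After filtering, the uninjured plates 209 and 213 held 65 and 72 tdTomato+ and 46 and 60 tdTomato- cells, and the injured plates 211 and 215 held 88 and 34 tdTomato+ and 58 and 45 tdTomato- cells.

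MMPs are zinc-dependent proteases that cut collagens, proteoglycans, growth factor carriers and other proteases. Most are secreted as inactive proforms, and Mmp14 and Mmp23 are held at the membrane. TIMPs bind the active site of MMPs, and Timp3 also inhibits ADAM and ADAMTS proteases and stays bound to the matrix. In scarring tissue, the balance of the proteases and their inhibitors bears on how much matrix is laid down and kept.

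The labels name no animal, so a group is 1 sample without replicates and no difference between groups was tested. Values are the counts of a gene over a whole group for every 1000000 counts of all genes (CPM), with an exact Poisson 95% interval that covers counting error only. Group totals ran from 25645409 to 38406035 counts, and for each of the 10 genes the lowest cell of each group had no count. Both sorts were on every plate, but no plate held injured and uninjured cells, so injury and plate cannot be told apart. Plate 211 gave 94.6% of the counts of injured tdTomato+ cells. Slc1a3 stood at 212 and 207 CPM in the tdTomato+ groups against 31.5 and 10.7 CPM in the tdTomato- groups. The makeup of the groups differed widely. The 9 pericyte markers summed to 11104 and 12234 CPM in uninjured tdTomato+ and tdTomato- cells, to 730.0 CPM in injured tdTomato+ cells and to 11318 CPM in injured tdTomato- cells, and the 8 perivascular fibroblast markers to 3620, 1867, 19718 and 8425 CPM. The 5 endothelial markers summed to more than 1000 CPM in 72.99% and 68.9% of the uninjured cells of the 2 sorts, against 1.64% and 23.3% of the injured cells. The 6 cycling markers summed to 12.9 and 7.03 CPM in uninjured tdTomato+ and tdTomato- cells and to 1216 and 674 CPM in injured ones, and the 7 stromal fibroblast markers to 841 and 869 CPM before and 3872 and 3358 CPM after injury. The 5 meningeal markers summed to 27.8 and 87.1 CPM before and 674 and 571 CPM after injury, with Slc22a6 at 0 in all groups but injured tdTomato+ cells. The part of these markers in the injury differences was not tested. Within a group sum, a change in the share of a cell type cannot be told apart from a change within cells.

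After injury, Timp1 and most of the detected MMPs stood higher in both sorts while Timp4 stood lower. Differences are of log2(CPM + 1), injured minus uninjured, unless said otherwise. A gene was called where log2(CPM + 1) differed by 1 or more with the same direction over all 4 pairings of injured with uninjured plates, among genes at 10 CPM or more in the higher group. In tdTomato+ cells, 4 of the 10 genes were called higher (Mmp11, Mmp14, Mmp19 and Timp1) and 1 lower (Timp4), where 10.8% of 11429 genes were called higher and 34.3% lower. In tdTomato- cells, 5 were called higher (Mmp2, Mmp11, Mmp14, Mmp19 and Timp1) and 1 lower (Timp4), where 9.52% of 11434 genes were called higher and 17% lower. Fewer calls were left for tdTomato+ cells once cells above 1000 CPM of endothelial markers were set aside, which kept 37 and 33 uninjured cells of the 2 sorts. Timp1 alone was then called higher in tdTomato+ cells and Mmp23 and Timp2 lower, while in tdTomato- cells Mmp11, Mmp14, Mmp19 and Timp1 were called higher and Mmp23, Timp2 and Timp4 lower. The uninjured Mmp2 counts that stayed, 2449 and 731 in the 2 sorts, equalled those of the perivascular fibroblast-like cluster described below. So did the Mmp23 counts, 1710 and 757. The filter thus raised the weight of these cells in the uninjured groups, and the part of this in the changed calls was not tested. The median difference over the 9 of the 10 genes at 10 CPM or more was 0.51 in tdTomato+ and 1.505 in tdTomato- cells, against medians over all genes of -0.59 and -0.20. The level of calls over all genes depended on scaling. With TMM factors, 2381 genes were called higher and 2158 lower in tdTomato+ cells, against 1238 and 3921 by CPM, and the median of all genes moved by 0.71. In tdTomato- cells, 1607 were then called higher and 1241 lower, against 1089 and 1941, and the median moved by 0.30. DESeq2 size factors gave 2734 higher and 1888 lower in tdTomato+ and 1484 higher and 1319 lower in tdTomato- cells.

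**Figure D1:**
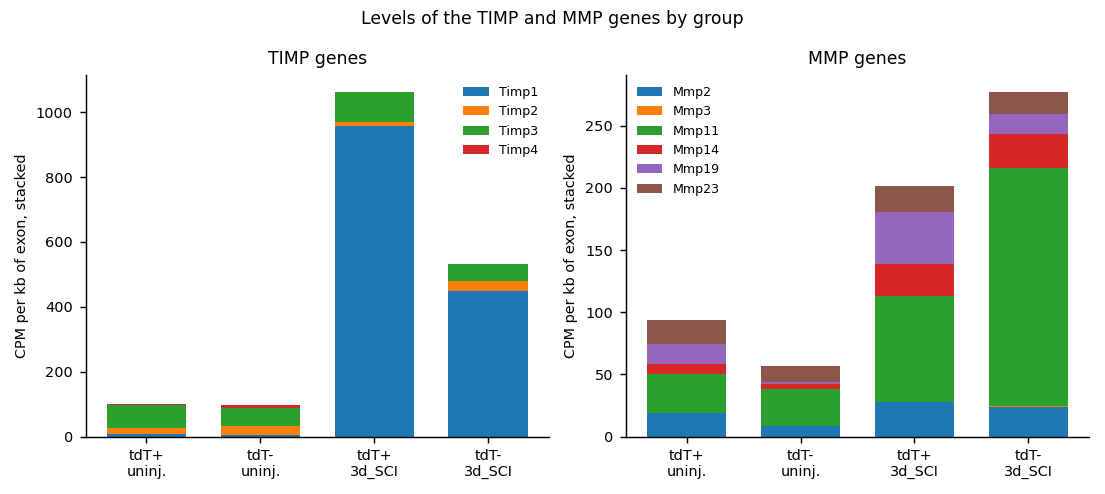
Levels of the 4 TIMP genes (left) and the 6 MMP genes (right) by group, as CPM per kb of exon stacked over genes, with each group (tdT, tdTomato; uninj., uninjured) on the horizontal axis. The Timp1 segment reached 956 and 449 CPM per kb in injured tdTomato+ and tdTomato- cells and 7.27 and 5.95 in the uninjured groups. The Mmp11 segment was the tallest of the MMPs in each group. Without division by exon length, Timp1 held 51.1% and 42.5% of the TIMP counts in injured tdTomato+ and tdTomato- cells.

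Timp1, a secreted inhibitor of most MMPs that also acts as a growth factor, differed most of the 10. It stood at 6.46 CPM (95% interval 5.68 to 7.31) in uninjured tdTomato+ cells and at 849 CPM (839 to 859) after injury, a 131.5-fold ratio with a counting interval of 116.03 to 149.6. In tdTomato- cells it went from 5.28 CPM (4.45 to 6.22) to 398 CPM (391 to 406), a 75.4-fold ratio (63.9 to 89.6). The median cell held 0 CPM in both uninjured groups, 693 CPM in injured tdTomato+ cells and 196 CPM in injured tdTomato- cells. The highest cells of the uninjured groups, at 151.6 and 174.7 CPM, lay below both medians, and the injured cells, which reached 4171 and 4618 CPM, overlapped the uninjured ones at their low end. On single plates the level was between 2.05 and 9.63 CPM in the uninjured groups, 835 and 1094 CPM in injured tdTomato+ cells and 388 and 407 CPM in injured tdTomato- cells, so that the ranges over plates did not overlap. The difference in log2(CPM + 1) was 6.83 in tdTomato+ cells, from 6.30 to 8.49 over plate pairs, and 5.99 in tdTomato- cells, from 5.55 to 6.26. It stayed at 5.21 and 5.34 without the cells above 1000 CPM of endothelial markers.

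With every cell thinned to 20000 counts, which left out 10, 14, 22 and 1 shallower cells of uninjured tdTomato+ and tdTomato- and injured tdTomato+ and tdTomato- cells, Timp1 had a count in 3.15% (exact binomial 95% interval 0.865 to 7.87) of uninjured tdTomato+ cells and in all 100 injured ones (96.4 to 100%). In tdTomato- cells the share was 5.43% (1.79 to 12.2) before and 81.4% (72.4 to 88.4) after injury. Without thinning, the shares stood at 6.57% and 95.9% for tdTomato+ and at 7.55% and 92.2% for tdTomato-. Of the 22 shallower injured tdTomato+ cells, 21 were among the 34 of plate 215. Values from thinned cells of this group therefore rest mostly on plate 211. Before thinning, Timp1 had a count in 100% of its plate 211 and 85.3% of its plate 215 cells. Timp1 took 7.21% of the TIMP level per kb of exon in uninjured tdTomato+ cells and 89.95% after injury. In tdTomato- cells these shares were 6.14% and 84.5%. Without division by exon length, Timp1 held 0.94% and 51.1% of the TIMP counts in uninjured and injured tdTomato+ cells. In tdTomato- cells it held 0.86% and 42.5%. Timp3 held 45.7% of the TIMP counts in injured tdTomato+ cells and 44.8%, above Timp1, in injured tdTomato- cells. The share of Timp1 thus depended on the scale, and which scale suits these counts was not tested.

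The Timp1 gene lies on chromosome X (GRCm38, chrX:20870166-20874735, plus strand) and overlaps the synapsin gene Syn1 on the other strand, with no exon base shared in GENCODE M21. Syn1 itself had 0.260 to 1.29 CPM in the 4 groups. The promoters of Timp1 and Mmp14, the pair of members most alike over single cells, are shown as the 250 bases before the RefSeq start (GRCm38.p6, 5′ to 3′). Capitals mark matches on either strand to AGGAAG, the core of the PEA3 element bound by Ets factors, which was looked for together with the AP-1 element TGANTCA because both are textbook elements of MMP and TIMP promoters.
Timp1, chrX:20869916-20870165, plus strand: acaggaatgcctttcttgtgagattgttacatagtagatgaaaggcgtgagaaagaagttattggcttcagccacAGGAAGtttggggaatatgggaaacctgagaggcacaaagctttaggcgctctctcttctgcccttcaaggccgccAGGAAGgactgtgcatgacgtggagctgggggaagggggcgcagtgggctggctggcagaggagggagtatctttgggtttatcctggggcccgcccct
Mmp14, chr14:54431348-54431597, plus strand: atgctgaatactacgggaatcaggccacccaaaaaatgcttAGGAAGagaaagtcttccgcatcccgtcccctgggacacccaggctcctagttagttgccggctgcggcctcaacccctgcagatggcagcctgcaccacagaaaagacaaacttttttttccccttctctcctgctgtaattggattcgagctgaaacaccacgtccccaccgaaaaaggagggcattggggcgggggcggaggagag
The Timp1 window held AGGAAG 175 and 99 bases before the start, and the Mmp14 window once, 209 bases before. Neither held TGANTCA. Of 32851 promoter windows of this length, 29.5% held AGGAAG and 6.75% TGANTCA on either strand, so an AGGAAG match is common. Of the 8 members with a window in the table (Mmp2 and Mmp19 had none there), AGGAAG occurred in Timp1, Timp3, Timp4, Mmp3 and Mmp14 and TGANTCA in Mmp3 alone, 46 bases before the start.

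**Figure D2:**
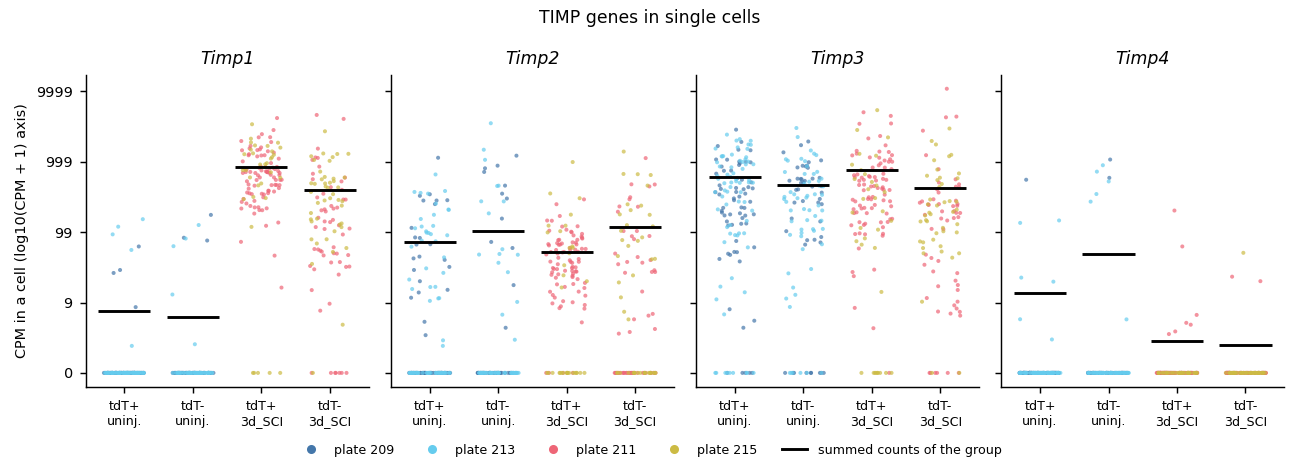
CPM of each TIMP gene in single cells on a log10(CPM + 1) axis, by group, with points coloured by plate and a bar at the level of the summed counts of the group. Timp1 points lay at 0 for most uninjured cells and around the bars at 849 and 398 CPM after injury, while Timp3 points filled the same range in the 4 groups.

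Timp3, the matrix-bound inhibitor, was the TIMP present in most cells of every group, and was not called in any comparison by CPM. It stood at 598 CPM (590 to 605) in uninjured tdTomato+, 462 CPM (454 to 470.0) in uninjured tdTomato-, 759.5 CPM (749.9 to 769) in injured tdTomato+ and 420.2 CPM (412 to 428) in injured tdTomato- cells, with a count in 78.4% to 95% of thinned cells. The median cells stood at 368, 294, 327 and 175 CPM, and the cells of the 4 groups overlapped throughout. The injury difference was 0.35 in tdTomato+ cells, 0.14 to 0.89 over plate pairs, and -0.14 in tdTomato- cells, -0.37 to 0.03. Without the cells above 1000 CPM of endothelial markers it turned to -0.55 in tdTomato+ cells, from 1137 to 774 CPM, and was -0.70 in tdTomato- cells, from 783 to 482 CPM. With TMM or DESeq2 size factors, Timp3 was called higher after injury in tdTomato+ cells and higher in injured tdTomato+ than in injured tdTomato- cells. Its count has a limit set by the locus. Timp3 (chr10:86300372-86349506, plus strand) overlaps Syn3, a neuronal synapsin gene on the other strand, and 1733 of its exon bases (21.3%) are also Syn3 exon. Syn3 had 192 to 300 CPM in these perivascular cells, and its share of the counts of the pair was 28.4%, 29.3%, 28.3% and 32.05% in the 4 groups in the order above. Over the 421 thinned cells, Syn3 was also the gene with the count most like that of Timp3 among 8059 compared (Spearman rho 0.80), with the next gene, Cd9, at 0.39. How the counting used strand is not given in the sources used here, so reads of the 2 genes cannot be told apart.

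Timp2, which inhibits MMPs and also joins Mmp14 in activating pro-Mmp2, was not called after injury in the full groups. It stood at 70.2 CPM (67.6 to 72.9) and 51.6 CPM (49.2 to 54.2) in uninjured and injured tdTomato+ cells, and at 101.9 CPM (98.1 to 105.8) and 118.2 CPM (113.98 to 122.4) in tdTomato- cells. Without the cells above 1000 CPM of endothelial markers it was called lower in both sorts, from 212 to 52.4 CPM in tdTomato+ cells and, with the direction turned, from 413 to 153.8 CPM in tdTomato- cells. In the full groups its distribution over cells differed more than its sum. The share of thinned cells with a count was 29.1% (21.4 to 37.9) before and 56% (45.7 to 65.9) after injury in tdTomato+ cells, and 20.7% (12.9 to 30.4) and 38.2% (28.8 to 48.4) in tdTomato- cells, while the highest cell stood at 1138 and 989 CPM in tdTomato+ and at 3521 and 1393 CPM in tdTomato- cells.

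Timp4, an inhibitor of narrow tissue range, was the one member called lower after injury in the full groups. It went from 12.7 CPM (11.6 to 13.8) to 1.83 CPM (1.39 to 2.37) in tdTomato+ cells and from 47.8 CPM (45.2 to 50.4) to 1.52 CPM (1.08 to 2.08) in tdTomato- cells, a 31.4-fold ratio (22.8 to 44.4). Few cells carried it. A count was found in 3.15% and 7.61% of thinned uninjured cells and in 2.00% and 0.98% of injured ones, and the median cell was at 0 CPM in each group. In uninjured tdTomato+ cells, 1 cell held 79.6% of the counts, and without the highest cell of each group the level was 2.63 against 1.00 CPM and the call was lost. Without the cells above 1000 CPM of endothelial markers it was 0 against 1.87 CPM. In tdTomato- cells, the highest cell held 28.7%, the level without it was 34.7 CPM against 0.32 CPM and the call remained. The 5 astrocyte markers also summed highest in uninjured tdTomato- cells, at 299 CPM (91.01 and 398 on the 2 plates) against 9.24 CPM after injury, with none of the 5 at 0, and their part in the Timp4 level was not tested.

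Mmp14, the membrane-type protease that cuts fibrillar collagen and activates pro-Mmp2, was higher after injury in both sorts. It rose from 46.7 CPM (44.5 to 48.9) to 149.7 CPM (145.4 to 154.1) in tdTomato+ cells, a 3.21-fold ratio (3.04 to 3.39), and from 23.3 CPM (21.5 to 25.2) to 165 CPM (159.8 to 169.8) in tdTomato- cells, a 7.07-fold ratio (6.50 to 7.71). The median cell went from 0 CPM in both uninjured groups to 140.8 and 95.4 CPM. Uninjured plates stood between 11.7 and 47.96 CPM and injured plates between 139.8 and 323 CPM, without overlap. The share of thinned cells with a count went from 29.9% (22.1 to 38.7) to 91% (83.6 to 95.8), and from 22.8% (14.7 to 32.8) to 69.6% (59.7 to 78.3). The difference in tdTomato+ cells was 1.66, and 0.92 without the cells above 1000 CPM of endothelial markers, where the uninjured level was 80.2 CPM and the call was lost. In tdTomato- cells it was 2.77, and 2.56 without those cells.

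Mmp2, the gelatinase that Mmp14 activates, was called higher in tdTomato- cells, from 27.2 CPM (25.3 to 29.2) to 79.0005 CPM (75.6 to 82.5), and stood at 64.6 CPM (62.1 to 67.2) and 92.6 CPM (89.3 to 96.0) in tdTomato+ cells. There the number of cells differed more than the level. A count was found in 18.9% (12.5 to 26.8) of thinned uninjured and 62% (51.7 to 71.5) of thinned injured tdTomato+ cells, with median cells at 0 and 53.95 CPM and highest cells at 959 and 1610 CPM. In tdTomato- cells the shares were 7.61% (3.11 to 15.1) and 19.6% (12.4 to 28.6), and both median cells were at 0 CPM. In tdTomato+ cells the direction turned without the cells above 1000 CPM of endothelial markers, from 238 CPM (228 to 247) before to 94.7 CPM (91.3 to 98.3) after injury, a difference of -1.32 that was not called, against 0.51 in the full groups. In tdTomato- cells the difference was 0.77 without plate 215, and without the cells above 1000 CPM of endothelial markers it was -0.13, from 112.3 to 102.6 CPM, and the call was lost under both.

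Mmp11, stromelysin 3, which is activated inside the cell by furin and is known from stroma around tumours and wounds, had the highest level per kb of exon of the 6 MMPs in each group. It rose from 86.5 CPM (83.6 to 89.5) to 239 CPM (233 to 244) in tdTomato+ cells, a 2.76-fold ratio (2.65 to 2.87), and from 83.4 CPM (80.005 to 86.9) to 531 CPM (522 to 540.2) in tdTomato- cells, a 6.37-fold ratio (6.09 to 6.66). The median cell went from 0 CPM to 34.1 and 129.6 CPM. In injured tdTomato- cells, 1 cell at 10418 CPM held 38.1% of the counts. Without the highest cell of each group the levels were 75.2 and 335 CPM and the difference fell from 2.66 to 2.14, still called. In tdTomato+ cells the difference of 1.45 fell to 0.55 without the cells above 1000 CPM of endothelial markers, where the uninjured level was 167 CPM and the call was lost.

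Mmp19, a secreted protease that cuts basement membrane proteins, rose from 57.5 CPM (55.1 to 59.9) to 147.8 CPM (143.6 to 152.1) in tdTomato+ cells and from 6.32 CPM (5.41 to 7.35) to 55.99 CPM (53.1 to 58.97) in tdTomato- cells. The shares of thinned cells with a count went from 25.2% (17.9 to 33.7) to 79% (69.7 to 86.5) and from 10.9% (5.34 to 19.1) to 45.1% (35.2 to 55.3), with median cells from 0 to 99.8 and 26.2 CPM. In tdTomato+ cells the uninjured plates stood apart, at 20.2 CPM on plate 209 and 84.4 CPM on plate 213, and without plate 209 the difference of 1.35 became 0.80 and the call was lost. Without the cells above 1000 CPM of endothelial markers it was -0.12, from 164 to 150.9 CPM. In tdTomato- cells the difference of 2.96 became 3.50 without them. Mmp19 (chr10:128790910-128800824, plus strand) overlaps Tmem198b on the other strand over 789 exon bases (22.3%). Tmem198b was the gene most like it over the thinned cells (rho 0.58) and made up 51.6%, 76.6%, 40.3% and 56.99% of the counts of the pair in uninjured tdTomato+ and tdTomato- and injured tdTomato+ and tdTomato- cells. With the 2 genes summed, the injury differences were 1.05 and 2.23, both still called.

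Mmp23, a membrane-anchored MMP without the usual hemopexin domain, was not called in any comparison of the full groups by CPM. It stood at 45.2 CPM (43.1 to 47.4) and 49.8 CPM (47.3 to 52.3) in uninjured and injured tdTomato+ cells and at 29.6 CPM (27.5 to 31.7) and 42.0 CPM (39.5 to 44.6) in tdTomato- cells. Both directions turned without the cells above 1000 CPM of endothelial markers, from 165.9 to 50.9 CPM and from 116.3 to 49.6 CPM, and Mmp23 was called lower in both sorts. The shares of thinned cells with a count went from 12.6% (7.38 to 19.7) to 42% (32.2 to 52.3) and from 6.52% (2.43 to 13.7) to 23.5% (15.7 to 32.96). Mmp3, stromelysin 1, was nearly absent, with 6, 15, 0 and 56 counts in uninjured tdTomato+ and tdTomato- and injured tdTomato+ and tdTomato- cells. In injured tdTomato- cells 1 cell held 62.5% of those counts. No thinned injured tdTomato+ cell had one, and the exact interval for the share of cells with a count at this depth was 0 to 3.62%.

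**Figure D3:**
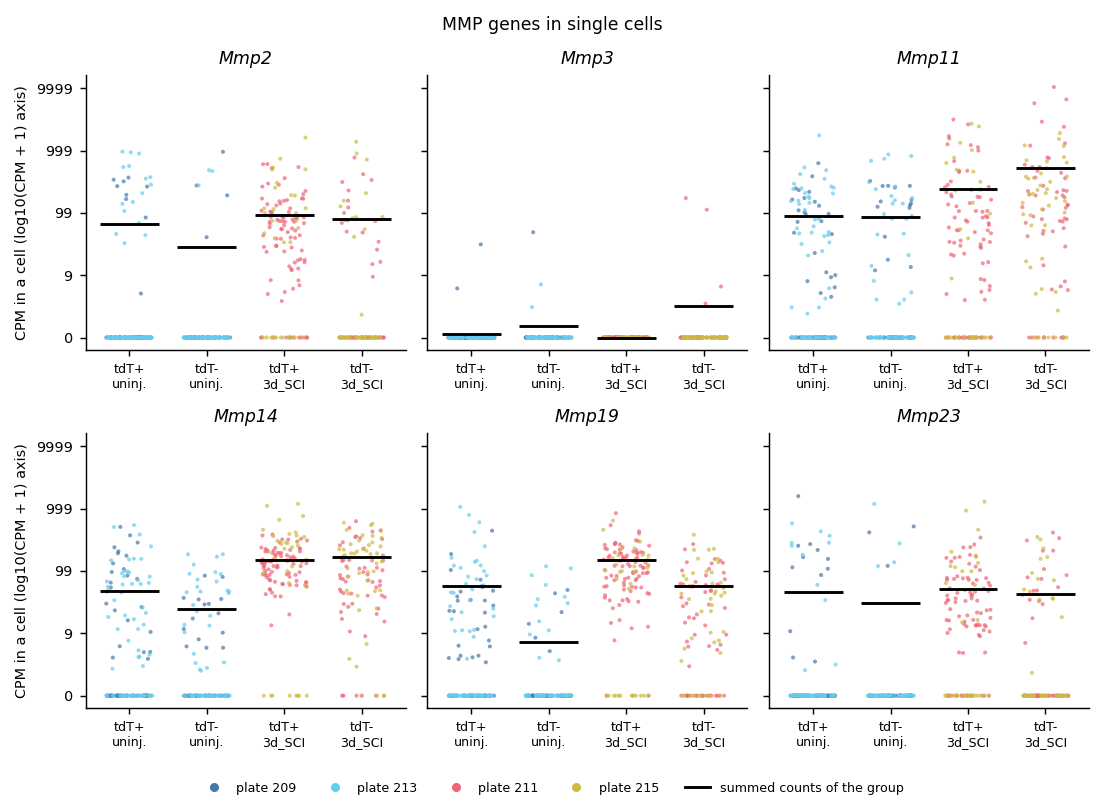
CPM of each MMP gene in single cells on a log10(CPM + 1) axis, by group, with points coloured by plate and a bar at the level of the summed counts of the group. Mmp14 points lay apart from 0 in most injured cells, with medians of 140.8 and 95.4 CPM, while Mmp3 points lay at 0 in nearly all cells.

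The 2 sorts were then compared within a condition, on the same plates. The study left fibroblasts with Slc1a3 and Pdgfra out of its tdTomato- data, as GLAST+ cells that had not recombined. Such cells were not removed here, so the tdTomato- sort may hold unmarked GLAST+ cells. In injured tdTomato- cells, 20 cells of the perivascular fibroblast-like cluster described below held 2492 of 3030 Timp2 counts and 1812 of 2026 Mmp2 counts. Differences are tdTomato+ minus tdTomato-, and a call needed the same direction on both plates. Among uninjured cells, 2 of the 10 genes were called higher in tdTomato+ cells, Mmp19 and Mmp2, and 1 was called lower, Timp4. Over all genes, 4.31% of 11198 were called higher and 3.61% lower. Mmp19 showed the widest gap, a 9.09-fold ratio (7.78 to 10.7) with a difference of 3.00, and 2.20 and 3.31 on the 2 plates. Mmp2 differed by 1.22, with 0.08 on plate 209 and 1.75 on plate 213, so that plate 213 carried the call. Mmp14, at 46.7 against 23.3 CPM, differed by 0.97 and was called without the highest cell of each group, at 1.05. Timp4 was 3.77-fold lower (3.40 to 4.198) in tdTomato+ cells, with differences of -0.28 on plate 209 and -3.40 on plate 213.

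Among injured cells, Mmp19 and Timp1 were called higher in tdTomato+ cells and Timp2 lower, where 4.31% of 10631 genes were called higher and 17.9% lower. With TMM factors these numbers of genes became 951 higher and 1256 lower, against 458 and 1908 by CPM, and the median of all genes moved by 0.38, while DESeq2 size factors gave 1304 higher and 1066 lower. Timp1 was 2.13-fold higher (2.08 to 2.18), with a difference of 1.09, and 1.10 and 1.42 on the 2 plates. Without the cells above 1000 CPM of endothelial markers the difference was 0.85 and the call was lost. Mmp19 was 2.64-fold higher (2.49 to 2.80), with a difference of 1.38, and 1.66 and 1.59 on the 2 plates. Summed with Tmem198b its difference was 0.92, under the threshold. Timp2 was 2.29-fold lower (2.15 to 2.43), with a difference of -1.18 over the groups but -0.57 on plate 211 and -0.96 on plate 215, both under the threshold. Without the highest cell of each group it became -0.83, and the call was lost in 7 of 12 alternatives, among them both scalings and leaving out either plate. Mmp11 stood at 239 against 531 CPM, but in opposite directions on the 2 plates, -1.78 on plate 211 and 0.52 on plate 215, and was not called. On plate 215, 1 cell held 76.03% of the tdTomato+ counts of Mmp11. Without the highest cell of each sort on a plate, Mmp11 stood lower in tdTomato+ cells on both. It was then at 202.4 against 373.1 CPM on plate 211 and at 120.8 against 252.6 CPM on plate 215. Mmp14 stood at 149.7 and 165 CPM, a difference of -0.14 over the groups, and -0.02 on plate 211 and 0.80 on plate 215, where it stood at 323 against 185.8 CPM.

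The injury effects of the 2 sorts were set side by side without a test of their difference. Timp1 and Timp3 had the larger injury difference in tdTomato+ cells in 4 of 4 plate pairs, by 0.84 and 0.48 over the groups. Mmp19 had the smaller one in tdTomato+ cells in 4 of 4 plate pairs, by 1.61 over the groups. For the other 7 genes the sign differed between plate pairs.

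**Figure D4:**
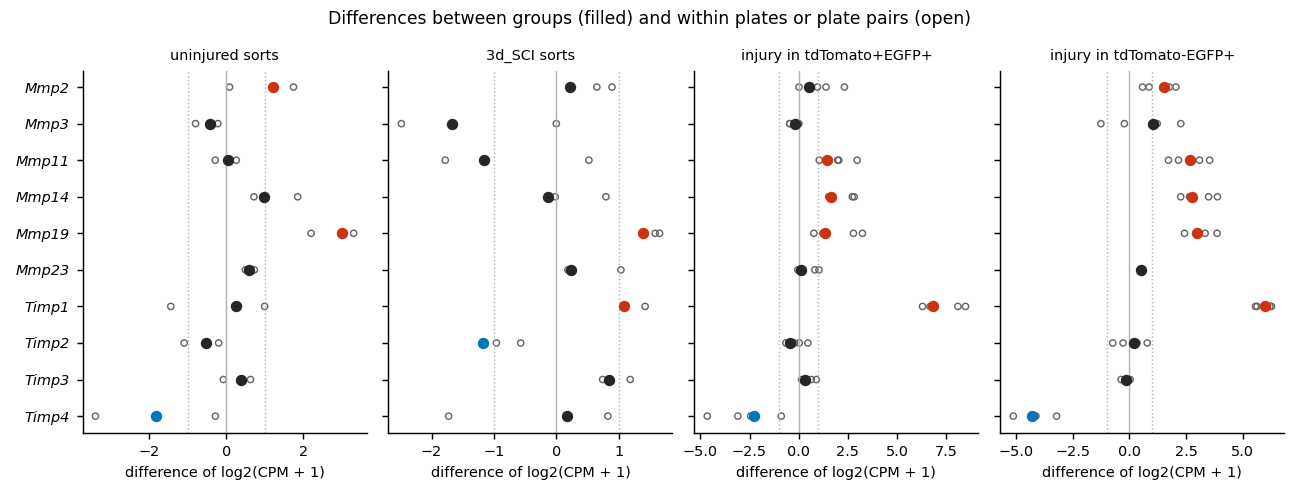
Difference of log2(CPM + 1) for each gene in the 4 comparisons (tdTomato+ minus tdTomato- for the sorts, 3d_SCI minus uninjured for injury), with filled points for the group sums (red called higher, blue called lower, black not called) and open circles for single plates or plate pairs. Dotted lines mark the threshold of 1, and Timp1 lay at 6.83 and 5.99 in the panels of injury.

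To see which cells carried the genes, the 468 cells were clustered on the other variable genes, with the 10 genes left out, into 6 clusters. Cluster 4 (73 cells, from all 4 groups) had 8 of 8 perivascular fibroblast and 4 of 7 stromal fibroblast markers raised and is called perivascular fibroblast-like. Myoc, Sfrp4 and Itgbl1 led it, and Slc47a1 of the meningeal list was among its leading genes. Cluster 5 (48 cells, 47 of them injured tdTomato-) had 7 of 9 pericyte and 4 of 7 stromal fibroblast markers raised, was led by Ednrb, Avpr1a and Oacyl, and is called pericyte-like, and cluster 6 (18 cells) had 5 of 6 vascular smooth muscle markers raised and is called vSMC-like. Cluster 2 (61 and 51 uninjured and 1 and 5 injured tdTomato+ and tdTomato- cells) and cluster 3 (37, 23, 2 and 14 in that order) had 8 of 9 pericyte markers raised together with 5 and 4 of 5 endothelial markers and were left unnamed. Cluster 1 (99 injured tdTomato+ cells beside 10, 10 and 16 of the others) had 6 of 6 cycling, 5 of 8 perivascular fibroblast and 5 of 7 stromal fibroblast markers raised and was also left unnamed. Its uninjured tdTomato+ and tdTomato- cells were shallow, with medians of 2488.5 and 2206 counts, against 273378 in its injured tdTomato+ cells.

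At this resolution 6 members had their highest level in the perivascular fibroblast-like cluster, namely Mmp2, Mmp3, Mmp19, Mmp23, Timp2 and Timp3. For Mmp3 this level was 2.63 CPM, 55 counts in 4.11% of the cells of cluster 4, with 1 cell holding 63.6% of them. Mmp2 stood at 296 CPM (289 to 304) there with a count in 90.4% of cells, at 60.3 CPM (57.6 to 63.1) in cluster 1, and at 1.92 CPM or less in the other 4 clusters, with no count at all in cluster 2. Mmp23 followed the same order, 178 CPM (172 to 183) in cluster 4, 40.3 CPM (38.1 to 42.6) in cluster 1 and at most 4.77 CPM elsewhere. Timp2 stood at 334 CPM (326 to 342) in cluster 4 and at 194 CPM (181 to 207) in the vSMC-like cluster, and at most 42.7 CPM in the others. Mmp19, at 170.0 CPM (164 to 176), was nearest in cluster 1, at 112.8 CPM (109.1 to 116.6). Timp3 was spread more evenly, from 124.9 CPM (118.5 to 131.6) in the pericyte-like cluster to 1039.5 CPM (1026 to 1053) in cluster 4.

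Mmp11 had another order. Its highest level was in the pericyte-like cluster, 992 CPM (973 to 1010.2), with 1 cell holding 46.2% of those counts and a count in 89.6% of the cells, against 286 CPM (278 to 293) in cluster 4 and 73.02 CPM (70.2 to 75.96) in cluster 2. Mmp14 stood in the pericyte-like cluster, cluster 1 and cluster 4 at 175 CPM (167 to 183), 150.6 CPM (146.3 to 154.99) and 139.5 CPM (134.5 to 144.7), and stood at 14.3 to 41.1 CPM in the others. The cluster levels given so far pool injured and uninjured cells, whose shares differed between clusters. In injured tdTomato- cells alone, Mmp14 stood at 175 CPM in the pericyte-like cluster, 209 CPM in cluster 1 and 220.2 CPM in cluster 4. Without the highest cell of each, these were 163.9, 182.8 and 176.8 CPM. In injured tdTomato+ cells Mmp14 stood at 141.5 CPM in cluster 1 and 197.5 CPM in cluster 4. Timp1 was highest in cluster 1 over all its cells, at 867 CPM (857 to 877), followed by cluster 4 at 308 CPM (301 to 316) and the pericyte-like cluster at 283 CPM (273 to 293). In injured tdTomato+ cells alone, Timp1 stood at 927 CPM in cluster 1 and 498 CPM in cluster 4. In injured tdTomato- cells it stood at 642 and 716 CPM there, and at 287 CPM in the pericyte-like cluster. Without the highest cell of each, the levels of injured tdTomato- cells were 586 CPM in cluster 1 and 558 CPM in cluster 4. Timp4 was highest in the vSMC-like cluster, 114.6 CPM (104.99 to 124.8), in 22.2% of 18 cells.

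Cluster 4 held cells of the 4 groups, so injury could be set beside no injury within it. Timp1 stood at 26.3 and 34.7 CPM in its uninjured tdTomato+ (26) and tdTomato- (8) cells, and at 498 and 716 CPM in its injured tdTomato+ (19) and tdTomato- (20) cells. Mmp14 went from 81.8 to 198 CPM and from 45.4 to 220.2 CPM. Mmp2 stood at 277 and 251 CPM in tdTomato+ and 357 and 345 CPM in tdTomato- cells, in the order uninjured and injured. Mmp23 went from 194 to 107.8 CPM and from 369.8 to 139.1 CPM, and Timp2 from 237 to 99.3 CPM and from 941 to 474 CPM, with 1 cell holding 49.5% of the counts behind the 941 CPM. Mmp11 stood at 181 and 822 CPM in tdTomato+ cells. In tdTomato- cells it stood at 127.003 and 33.7 CPM, but 1 cell held 76.9% of the uninjured counts, and without the highest cell of each group the levels were 33.8 and 25.1 CPM. Mmp19 stood at 190.9 and 275 CPM in tdTomato+ cells and at 1.47 CPM, 3 counts in 1 cell, and 105.04 CPM in tdTomato- cells. Timp3 ran against its group sums in both sorts, from 1257 to 492 CPM in tdTomato+ cells and from 825 to 1259 CPM in tdTomato- cells. In injured tdTomato+ cells 1 cell held 51.8% of its counts, and without the highest cell of each group Timp3 stood at 1129 and 256 CPM, and at 608 and 1031 CPM in tdTomato- cells. In cluster 3, Timp1 stood at 4.52 CPM in 23 uninjured tdTomato- cells, all of it in 1 cell, and at 51.5 CPM in 14 injured ones. These are values of few cells with no test.

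**Figure D5:**
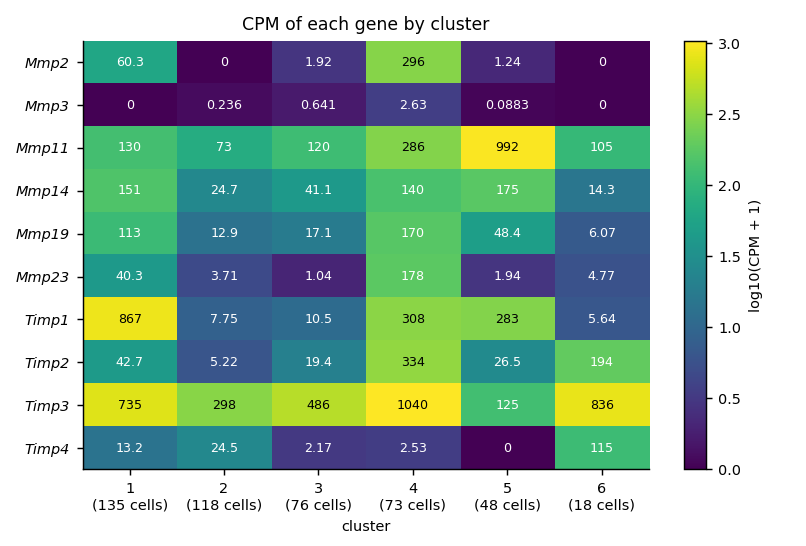
CPM of each gene (rows) in the 6 clusters (columns, with their number of cells), with the colour on a log10(CPM + 1) scale and the CPM printed. With injured and uninjured cells pooled, Mmp2 and Mmp23 were highest in cluster 4, Mmp11 in cluster 5 and Timp1 in cluster 1.

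Single cells carried more of the genes after injury. At 20000 counts a cell, the median cell held a count of 2 of the 10 genes in both uninjured groups, of 6 in injured tdTomato+ cells and of 4 in injured tdTomato- cells. At least 1 MMP and 1 TIMP together were found in 59.1% (49.98 to 67.7) and 59.8% (49.04 to 69.9) of uninjured tdTomato+ and tdTomato- cells, and in 99% (94.6 to 99.97) and 87.3% (79.2 to 93.04) of injured ones. Cells with Timp3 and no Timp1 made up 84.3% and 81.5% of the uninjured groups and 0% (0 to 3.62) and 12.7% (6.96 to 20.8) of the injured groups, while cells with both made up 3.15% and 5.43% before and 95% and 65.7% after. Timp1 and Mmp14 were together in 2.36% and 1.09% of uninjured and in 91% and 63.7% of injured cells. Mmp2 and Mmp14 were together in 10.2% and 3.26% of uninjured and in 58% and 18.6% of injured cells.

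The likeness of members over the 421 thinned cells is given as a description for the 8 found in enough cells, since the cells share plates, groups and depth. Mmp14 and Timp1 were the most alike pair of members (Spearman rho 0.61), followed by Mmp2 with Mmp23 (0.54), Mmp19 with Timp1 (0.54) and Mmp2 with Timp2 (0.52). Mmp11 stood apart, with 0.15 or less with every other member. Among all genes, Mmp2 was most like Serpinf1 (0.79), Pdgfra (0.76) and Col6a1 (0.74), and Mmp23 like Serpinf1 (0.61), Col1a1 (0.59) and Col1a2 (0.58), genes that fibroblasts express. Timp1 was most like Lgals1 (0.81), Loxl2 (0.80) and Rplp0 (0.79), and Mmp14 like Timp1, Loxl2 (0.56), a collagen cross-linking enzyme, and Fstl1 (0.55). After Tmem198b, Mmp19 was most like Aebp1 (0.56) and Vcan (0.55). Timp2 was most like Igfbp6 (0.62), Gsn (0.61) and Col6a1 (0.60). Mmp11 was most like Adamts4, Litaf and Pros1, at 0.33 each, and Timp3, after Syn3 and Cd9, like Fbln2 (0.33).

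Of the other proteases and inhibitors of the family, 16 further MMPs were mostly low, with 3 or 4 at 10 CPM or more in a comparison. Mmp10, stromelysin 2, was called higher after injury in tdTomato+ cells, 0.0521 against 21.8 CPM, and higher there than in injured tdTomato- cells at 0.195 CPM, with 1 cell holding 41.003% of its injured counts. Mmp9, gelatinase B, was called higher in tdTomato- cells, 0.0372 against 15.6 CPM, with 1 cell holding 58.6% of the injured counts. In tdTomato+ cells it stood at 0.260 and 8.54 CPM, under the 10 CPM that a call needed. A count was found in 15.6% of injured tdTomato+ and 6.80% of injured tdTomato- cells. Without the highest cell of each group, the injured levels were 6.80 CPM in tdTomato+ and 6.51 CPM in tdTomato- cells, both under 10 CPM. Mmp15, a membrane-type MMP, was called lower after injury in tdTomato+ cells, 42.9 against 4.40 CPM, and stood at 43.9 CPM in injured tdTomato- cells. Mmp24 and Mmp25, a pair of further membrane-type MMPs, were also called lower in tdTomato+ cells, 38.8 against 15.1 CPM and 11.3 against 2.54 CPM. The calls of these MMPs and of the ADAM and ADAMTS genes below are by CPM. They were not repeated under TMM or DESeq2 size factors, or without the cells above 1000 CPM of endothelial markers. With TMM factors, lower calls over all genes after injury fell from 3921 to 2158 in tdTomato+ cells. The 12 ADAMs and 18 ADAMTS proteases gave 2 and 3 genes called higher and 2 and 2 called lower after injury in tdTomato+ cells, and 3 and 5 higher and 1 and 0 lower in tdTomato- cells. Over all genes at 10 CPM or more, 10.8% were called higher and 34.3% lower in tdTomato+ cells and 9.52% and 17% in tdTomato- cells, and 8 and 11 genes of the 2 lists reached that level in tdTomato+ and 7 and 12 in tdTomato- cells. Adam12 was called higher in both sorts, from 1.22 to 50.5 CPM and from 0.818 to 25.8 CPM. Adam15 was called lower in both sorts, from 181.5 to 27.7 CPM and from 192.8 to 80.1 CPM, and lower in injured tdTomato+ than in injured tdTomato- cells. In tdTomato+ cells Adam33, from 11.9 to 2.06 CPM, Adamts9, from 41.9986 to 15.5 CPM, and Adamts10, from 187 to 63.9 CPM, were the other genes of the 2 lists called lower. These 4 genes, Mmp24 and Mmp25 are given beyond the rule for named genes and were chosen after their values were seen. Adamts4, an aggrecanase that cuts the proteoglycans of the nervous system, rose from 17.3 to 564 CPM in tdTomato- cells and stood at 139.3 CPM in injured tdTomato+ cells. Adamts14, which trims procollagen, rose from 4.61 to 44.9 CPM in tdTomato+ cells. In the injured tdTomato- group Adamts8 and Adamts9 stood at 43.8 and 99.1 CPM, against 8.35 and 15.5 CPM in the injured tdTomato+ group, and were called.

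Of 11 other regulators of MMPs, 3 were called higher and 3 lower after injury in tdTomato+ cells, and 4 higher and 2 lower in tdTomato- cells, all 11 being at 10 CPM or more, beside the same 10.8% and 34.3% and 9.52% and 17% of all genes. Tfpi2, a secreted inhibitor of serine proteases and of some MMPs, rose from 4.82 to 808 CPM in tdTomato+ cells and from 6.43 to 61.5 CPM in tdTomato- cells. Cd44, a surface receptor that holds MMPs at the membrane, rose from 9.43 to 190.9 CPM and from 9.37 to 125.5 CPM. Reck, the membrane-anchored MMP inhibitor, was called lower in both sorts, from 88.1 to 11.6 CPM in tdTomato+ and from 94.95 to 12.3 CPM in tdTomato- cells. As with the further proteases, the calls of these regulators were not repeated under other scalings or without the cells above 1000 CPM of endothelial markers. A2m, which traps proteases of many classes, was called higher in the tdTomato+ sort in both conditions, at 128.4 against 19.9 CPM in uninjured and 148.8 against 1.33 CPM in injured cells. Of the tdTomato- counts, 1 cell held 79.6% in uninjured and 64.7% in injured cells, and without the highest cell of each group A2m stood at 104.9 against 4.10 CPM and at 120.3 against 0.471 CPM. Among uninjured cells Adamts12 was also called higher in tdTomato+ cells, 25.8 against 1.90 CPM, and Adamts5 lower, 36.3 against 85.9 CPM, with 31.3 against 45.6 CPM without the highest cell of each group.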

How the data were processed

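Single spinal cord cells were sorted and sequenced with Smart-seq3, and the authors deposited raw counts per gene and cell, aligned to the mouse genome (mm10 per the labels). The aligner, the counting tool, the use of strand and what 1 count stands for (read or molecule) are not given in the sources used here. Groups came from the label of each cell. Of 1968 cell columns, 1465 matched no labelled cell and were not used, and 92 spike-in rows (0.0314% of counts) stayed out of all totals. Of 503 labelled cells, 468 were kept, with at least 200 genes, under 20% mitochondrial counts after removal of cells with Gfap or Ptprc, or with Pecam1 that also exceeded Pdgfrb, above 1 on the natural log scale of counts per 10000 plus 1. The study states an upper limit of 1200 genes, which 33 of the 468 cells meet, and it was not applied. Doublets were limited by the singlet gate of the sort, and no caller was run.

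Each cell is 1 deposited sample and no animal is named, so each group is 1 sample and no test was run. Counts were summed per group and given as CPM with exact Poisson intervals. Ratios carry exact conditional binomial intervals and shares exact Clopper-Pearson intervals, which cover counting error only. The depth was 25645409 to 38406035 counts a group. A call needed a difference of log2(CPM + 1) of 1, one direction on each plate or plate pair, and 10 CPM in the higher group. The steps that made calls were also run on simulated data. Those data had no plate effect, no spread between cells and no change of cell types, so that run cannot show how these affect the calls. Shares of cells, co-detection and Spearman correlations used cells thinned to 20000 counts. Clusters came from Seurat 5.3.0 (R 4.3.3) with 2000 variable genes, 20 principal components and resolution 0.5, without the 10 genes. Scaling alternatives used edgeR 4.0.16 (TMM) and DESeq2 1.42.0 size factors. Other steps used Python 3.11.15, numpy 2.4.6, scipy 1.17.1 and pandas 2.3.3. Promoters came from RefSeq (GRCm38.p6) and gene positions from GENCODE M21 on GRCm38.

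Named genes were the 10 members, genes of the 4 lists that were called (at most 6 per comparison, by size), and the 3 genes most like each member over thinned cells. Members and lists were chosen with earlier results of these data known. Alternatives were other scalings, pseudocounts, thresholds and filters, and leaving out a plate or the highest cell. Leaving out cells above 1000 CPM of endothelial markers and summing overlapping genes were chosen after seeing the data. So was leaving out the highest cell within clusters, within plates and for genes of the other lists. For single genes of those lists no other alternative was run.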

Additional observations from a re-analysis of the deposited data

How the results depend on the processing

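No paired analysis was possible because no test was run and no label pairs the cells. The sorts share plates, and the report gives their differences on each plate. Across the alternatives run, Mmp19 stayed called between the uninjured sorts, Timp1 after injury in tdTomato+EGFP+ cells, and Mmp11, Mmp14, Mmp19, Timp1 and Timp4 after injury in tdTomato-EGFP+ cells. With a threshold of 2 on the log2 scale, the genes called were 1 higher and 0 lower between uninjured sorts, 0 higher and 0 lower between injured sorts, and 1 higher after injury in tdTomato+EGFP+ cells. With cells weighted equally, as the average over single-cell CPM, they were 2 lower between uninjured sorts, 1 higher and 0 lower between injured sorts, and 0 lower after injury in tdTomato+EGFP+ cells. TMM and DESeq2 size factors each left 0 lower between injured sorts, as did leaving out the highest cell of each gene. That last setting and a pseudocount of 10 each left 0 lower after injury in tdTomato+EGFP+ cells. Leaving out 1 plate gave 2 to 4 higher and 0 to 1 lower between injured sorts, and 3 to 5 higher and 0 to 1 lower after injury in tdTomato+EGFP+ cells. The 2 alternatives chosen after seeing the data also moved counts. Without cells above 1000 CPM of endothelial markers, 1 was higher between injured sorts, 1 higher and 2 lower after injury in tdTomato+EGFP+ cells (Mmp23 and Timp2 lower), and 3 lower in tdTomato-EGFP+ cells (Mmp23, Timp2 and Timp4). Under it the injury difference reversed to -0.12 for Mmp19 and 1.52 for Timp4 in tdTomato+EGFP+ cells and to -0.13 for Mmp2 in tdTomato-EGFP+ cells, with 37 and 33 uninjured cells left. Differences not called before also turned, to -1.32 for Mmp2, -1.69 for Mmp23 and -0.55 for Timp3 after injury in tdTomato+EGFP+ cells, to -1.21 for Mmp23 and -1.42 for Timp2 in tdTomato-EGFP+ cells, and to -0.11 for Mmp2 between injured sorts. With overlapping genes summed, 1 was higher between injured sorts. The cause of these changes was not tested. At other clustering resolutions, 6 to 8 members were highest in the fibroblast-like cluster. Mmp3 stayed under 10 CPM in each group so that no call was possible, while 3 counts, the floor of detection used, came to 0.0781 to 0.117 CPM a group.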
